A study of Mus musculus with 37 samples.

Results

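Genes of the small RNA machinery, Gtsf1, Gtsf1l, Gtsf2, Mael, Ddx4, Piwil2, Dicer1, Ago2, Tdrd1 and Mov10l1, 10 in all, were measured in 31 RNA-seq libraries of mouse oocytes and 2-cell embryos and 6 ATAC-seq libraries of oocytes. They were selected on the measured differences between the groups of these same 4 RNA-seq tables, with those results known, so the values of the members are a description and carry no test. By gene symbol, 9 of the 10 members were listed among 25053 genes in the ZH table, 10 among 19033 in the CabZ oocyte table, 10 among 24305 in the CabZ 2-cell table and 8 among 15855 in the Zscan4 table. Gtsf2 was not listed by symbol in the ZH and Zscan4 tables, where a row named BC048502 covered the same locus, and Mov10l1 was not listed in the Zscan4 table.

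Wild-type mice were C57BL/6, and floxed Hira and floxed Cabin1 were carried on C57BL/6 backgrounds. The strain of the Zp3-Cre line, described next, and the ages of the mice are not given in the sources used here. ZH KO oocytes were germinal vesicle (GV) stage oocytes in which Zp3-Cre, a recombinase active in the growing female germ cell, deleted floxed Hira, and CabZ KO oocytes carried the same Cre with floxed Cabin1. Hira and Cabin1 are subunits of the chaperone that deposits histone H3.3. The ZH Het and CabZ Het littermate controls also carried Zp3-Cre with 1 floxed allele, so the controls were themselves not wild type. CabZ 2-cell embryos came from CabZ Het or CabZ KO females, and whether they were fertilised or activated without sperm is not given in the sources used here for these libraries, so whether a paternal Cabin1 copy was present is not known. In the Zscan4 experiment, wild-type oocytes received RNA for Zscan4, a factor of the 2-cell stage, or for GFP, and were matured and activated without sperm to the 2-cell stage. There were 4 libraries in each group except 3 labelled Zscan4 OE, each made from a pool of cells by the study's methods, although the labels speak of single cells. Nothing in the labels says which libraries came from separate animals, so the spread between libraries may be partly technical.

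Small RNAs guide Argonaute proteins to complementary transcripts. In the piRNA branch, PIWI proteins such as Piwil2 work with the helicases Ddx4 and Mov10l1, the tudor scaffold Tdrd1, the nuage protein Mael and the zinc finger protein Gtsf1. In the microRNA and endogenous siRNA branch, Dicer1 cuts double-stranded precursors and Ago2 carries the product. Gtsf1l and Gtsf2 are paralogues of Gtsf1. Mouse oocytes are known for abundant endogenous siRNAs.

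The libraries held between 5815869 and 21875525 reads on genes. CabZ KO 2-cell libraries were the shallowest, at 5815869 to 6327922 reads. Values are FPKM, fragments scaled to the length of the annotated gene span and to library size. The 4 tables were scaled separately, so no test was made between tables. The 10 oocyte markers were all listed in every table and reached 1 FPKM in every group. Their sum was 2463 to 2581 FPKM in ZH Het and 1502 to 2142 in ZH KO oocytes. Granulosa and cumulus cell markers summed to at most 4.06 FPKM in any library, and their part in the results was not tested. Of 11 such markers, 10 were listed for ZH, 6 for CabZ oocytes, 8 for CabZ 2-cell embryos and 3 for Zscan4. In some library, 3 reached 1 FPKM in CabZ Het 2-cell embryos, 1 in CabZ KO 2-cell embryos and 1 in ZH KO. Amhr2 was at 0 in ZH Het, Foxl2 in ZH KO and Fshr in CabZ Het 2-cell embryos. The sum of these markers was 0.451 to 0.774 FPKM in ZH Het and 1.08 to 2.56 in ZH KO libraries. The targeted gene Cabin1 was lower in CabZ KO than in CabZ Het oocytes, at 0.0125 to 0.0482 against 0.0891 to 0.159 FPKM. It was also lower in ZH KO than in ZH Het oocytes, at 0.0640 to 0.102 against 0.259 to 0.346 FPKM, so a lower level was not particular to the CabZ line. Hira was counted with only 2 to 14 reads in ZH Het and 0 to 13 in ZH KO libraries, so it could not check the ZH labels. Zscan4d, the injected gene, was at 69.4 to 148.6 FPKM in the libraries labelled GFP and at 70.3 to 84.3 in those labelled Zscan4 OE, so it was not higher in the latter at the 2-cell stage. Zscan4d has near-identical copies that share its reads, and its values are uncertain. The Zscan4 groups are therefore named by their labels.

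The 250 bases before the annotated RefSeq start (GRCm38.p6) are shown for the 3 GTSF1 family genes, whose levels differed from one another, and for Tdrd1, which had start-site peaks in most ATAC-seq libraries. Capitals mark CG dinucleotides.
Gtsf1 (chr15:103430428-103430677, minus strand): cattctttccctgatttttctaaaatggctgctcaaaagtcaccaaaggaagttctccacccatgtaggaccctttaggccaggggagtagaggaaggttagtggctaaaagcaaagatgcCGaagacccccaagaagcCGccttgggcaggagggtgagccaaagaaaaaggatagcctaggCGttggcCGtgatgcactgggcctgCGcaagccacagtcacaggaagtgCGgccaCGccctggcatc
Gtsf1l (chr2:163089602-163089851, minus strand): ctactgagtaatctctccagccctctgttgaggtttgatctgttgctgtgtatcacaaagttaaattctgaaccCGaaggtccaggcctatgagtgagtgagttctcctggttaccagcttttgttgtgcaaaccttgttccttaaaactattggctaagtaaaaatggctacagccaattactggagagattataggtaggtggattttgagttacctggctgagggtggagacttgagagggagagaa
Gtsf2 (chr15:103448460-103448709, minus strand): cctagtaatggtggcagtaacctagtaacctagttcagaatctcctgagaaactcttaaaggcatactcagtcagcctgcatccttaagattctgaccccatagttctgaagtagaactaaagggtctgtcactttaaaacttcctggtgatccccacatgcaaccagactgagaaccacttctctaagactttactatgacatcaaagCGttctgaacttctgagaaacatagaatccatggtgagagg
Tdrd1 (chr19:56825959-56826208, plus strand): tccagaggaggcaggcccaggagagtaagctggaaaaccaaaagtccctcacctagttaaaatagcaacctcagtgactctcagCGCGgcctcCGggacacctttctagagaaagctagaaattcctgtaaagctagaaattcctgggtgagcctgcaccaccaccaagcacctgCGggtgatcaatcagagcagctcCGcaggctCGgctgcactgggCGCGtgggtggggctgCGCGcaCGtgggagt

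The windows of Gtsf1l and Gtsf2 held 1 CG each, that of Gtsf1 held 7 and the Tdrd1 window shown held 11, while the median over 32851 windows was 6. RefSeq windows were matched for 8 of the 10 members. TGCACAC, searched on both strands, was in 3.67% of all windows. It was in none of the 4 sequences shown. RefSeq lists 2 further Tdrd1 starts, with 22 and 3 such dinucleotides before them, and the motif was in the last of these windows. CCAAT on either strand was in the Gtsf1l window and in 33.9% of all windows.

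Gtsf1l differed most among the members in both CabZ tables on the log2(FPKM + 1) scale, while in ZH oocytes Mael did. The gene lies at chr2:163087034-163087855 on the minus strand (GRCm38) as a single annotated exon of 822 bp, which sits within a longer RefSeq gene whose start is further upstream. In CabZ Het GV oocytes it was at 5.66, 3.84, 3.40 and 5.11 FPKM and in CabZ KO oocytes at 19.3, 25.3, 34.5 and 38.2 FPKM. Every KO library was above every Het library, and the means, 4.50 ± 1.06 and 29.3 ± 8.59 (SD, n = 4), gave a ratio of 6.52. The share of all genes whose groups did not overlap was not counted, here or for the members below.

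In CabZ 2-cell embryos the order was turned round. The Het embryos were at 59.0, 51.1, 102.7 and 77.8 FPKM and the KO embryos at 8.33, 5.83, 7.88 and 9.62 FPKM. Every KO library was below every Het library, with a ratio of means of 0.109. The KO values rest on about 30 to 46 reads a library. The summed oocyte markers also differed between these embryos, at 146 to 225 FPKM in Het and 430 to 956 in KO, and their part in the result was not tested. In pooled cells, fewer expressing cells and less RNA per cell cannot be told apart. The difference between the stages was not tested, because the tables were scaled separately.

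In ZH oocytes Gtsf1l was at 2.80, 2.09, 5.06 and 5.15 FPKM in Het and at 9.36, 6.67, 8.16 and 8.47 FPKM in KO libraries. These groups did not overlap, and the ratio of means was 2.16. In the Zscan4 experiment it was at 4.01, 3.26, 3.65 and 2.95 FPKM in the libraries labelled GFP and at 1.64, 1.65 and 2.34 FPKM in those labelled Zscan4 OE. Again the groups did not overlap, with a ratio of 0.541 on about 27 to 110 reads.

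**Figure D1:**
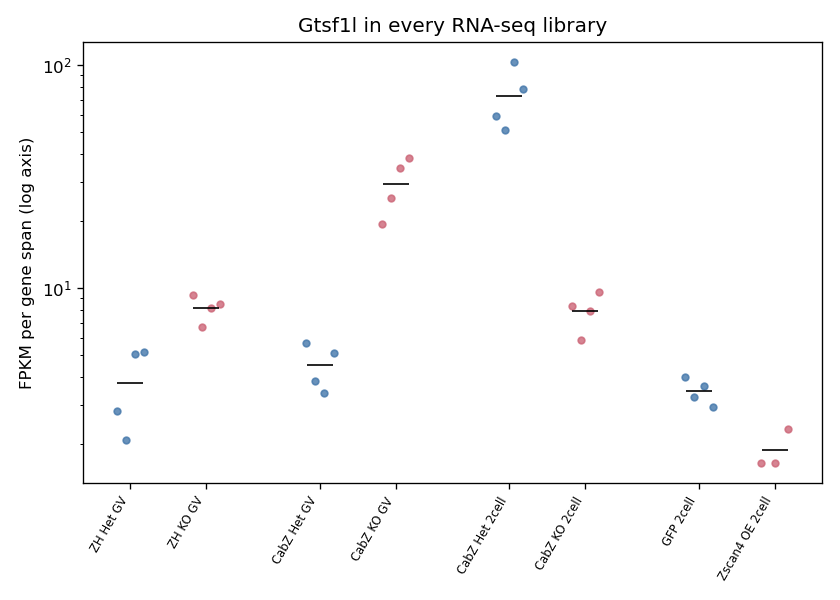
Gtsf1l in FPKM per gene span (log axis) in each of the 31 libraries, grouped by experiment; points are libraries (blue, controls; red, KO or labelled Zscan4 OE) and lines are group means. CabZ KO lies above CabZ Het in GV oocytes, at 19.3 to 38.2 FPKM, and below it in 2-cell embryos, at 5.83 to 9.62 FPKM.

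Gtsf1 itself, which in the male germline assists PIWI-directed silencing, overlapped between the groups of every table. ZH Het oocytes were at 18.8 to 23.4 FPKM and ZH KO at 13.9 to 23.1. CabZ Het oocytes were at 32.1 to 37.5 FPKM and CabZ KO at 23.9 to 36.5. In CabZ 2-cell embryos the level was 1.49 to 2.23 FPKM in Het and 1.45 to 1.67 in KO. Per kilobase of exon, Gtsf1 was the highest member in CabZ Het GV oocytes, at 718 ± 47.6 FPKM, followed by Mael at 58.5 ± 5.49. In CabZ Het 2-cell embryos the order began with Gtsf1l at 72.7 ± 23.0 and Mael at 68.9 ± 2.74, which overlapped, and Gtsf1 followed at 38.0 ± 7.10.

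Gtsf2 was at 0.625 to 0.805 FPKM in CabZ Het and 0.704 to 1.52 in CabZ KO oocytes. In 2-cell embryos it was at 1.19 to 4.77 FPKM in Het and 4.25 to 7.46 in KO. The groups overlapped in both tables. The BC048502 row at chr15:103438965-103448459, 8 bp inside the start and 10 bp inside the end of Gtsf2, was at 0.333 to 0.529 FPKM in ZH Het and at 0.802 to 1.55 in ZH KO oocytes, without overlap. It overlapped between the libraries labelled GFP and Zscan4 OE, at 1.88 to 3.40 and 1.21 to 2.502 FPKM.

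Mael and Tdrd1, of the piRNA branch, differed in opposite directions in ZH oocytes. Mael was at 1.43 to 1.74 FPKM (median 1.64) in ZH Het and 3.52 to 7.42 (median 4.50) in ZH KO, a ratio of means of 3.09. Tdrd1 was at 1.85 to 2.13 FPKM in ZH Het and at 0.509 to 0.867 in ZH KO, a ratio of 0.331. Neither group pair overlapped. In CabZ oocytes both genes overlapped between genotypes, with ratios of 0.910 for Mael and 0.897 for Tdrd1. Tdrd1 was higher in CabZ KO than in CabZ Het 2-cell embryos, at 0.692 to 0.762 against 0.177 to 0.379 FPKM, while Mael overlapped there.

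The helicase Ddx4 was at 0.498 to 0.743 FPKM in ZH Het and 0.982 to 1.45 in ZH KO oocytes. In CabZ 2-cell embryos it was lower in KO, at 0.229 to 0.503 against 0.625 to 1.63 FPKM. Piwil2 stayed at or below 0.334 FPKM in every library, and its ZH ratio of 4.50 rests on 9 or more reads per Het library and 44 or more per KO library. That ratio also depends on the minimum of 0.01 subtracted from the ZH values, as Piwil2 was at 0.0114 to 0.0216 FPKM in ZH Het. Mov10l1, the helicase of piRNA precursor processing, stayed at or below 0.159 FPKM and overlapped in its 3 tables. Piwil2 and Mov10l1 each contain small non-coding RNA genes within their spans, and reads from these cannot be told apart.

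Of the microRNA and siRNA branch, Dicer1 was at 4.47 to 6.71 FPKM in CabZ Het and 7.32 to 8.32 in CabZ KO oocytes. It was also higher in CabZ KO 2-cell embryos, at 3.08 to 4.06 against 0.986 to 1.62 FPKM, and overlapped in the ZH and Zscan4 tables. Ago2 went the other way. It was at 0.238 to 0.319 FPKM in ZH Het and 0.0771 to 0.125 in ZH KO oocytes, at 0.398 to 0.601 and 0.269 to 0.344 in CabZ oocytes, and at 0.274 to 0.529 and 0.147 to 0.190 in CabZ 2-cell embryos, without overlap in any of these 3 tables. Ago2 shares its locus with Chrac1 on the opposite strand, so reads of the pair cannot be told apart.

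**Figure D2:**
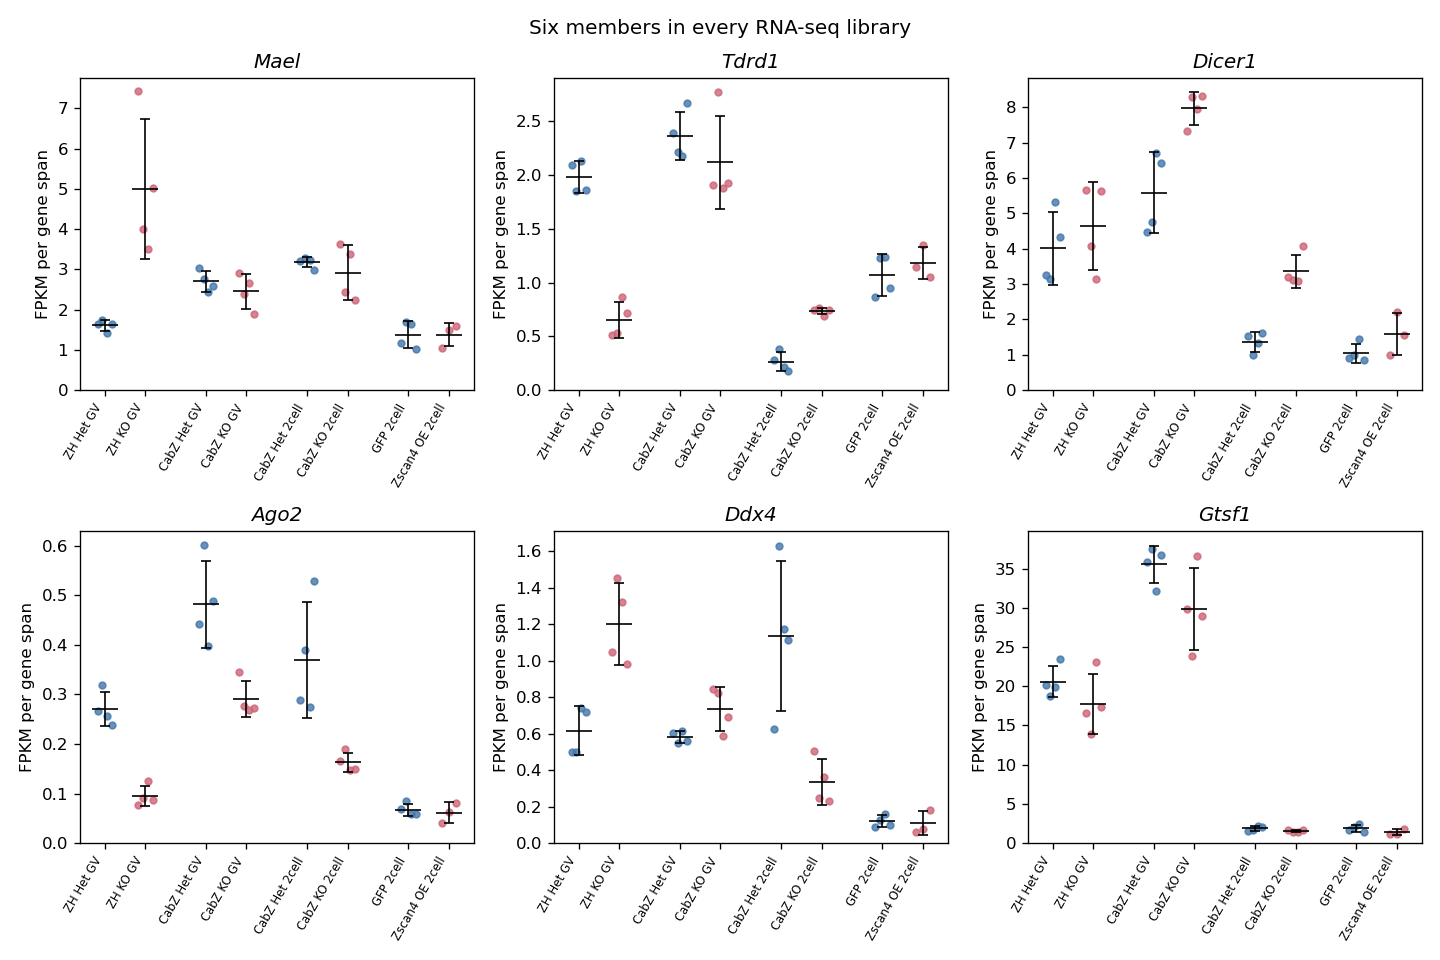
FPKM per gene span of Mael, Tdrd1, Dicer1, Ago2, Ddx4 and Gtsf1 in each library; points are libraries (blue, controls; red, KO or labelled Zscan4 OE), with the group mean and SD. Mael was higher and Tdrd1 lower in ZH KO oocytes, while Ago2 was lower in KO than Het in the ZH, CabZ oocyte and CabZ 2-cell groups.

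Across all genes, limma on log2(FPKM + 1) called a gene at an adjusted p under 0.05 and a fold over 2 on that scale. Adding 1 shrinks the fold of low values, so some members whose mean FPKM differed by more than a fold of 2 missed it. These were Tdrd1 (ratio 0.331, log2 difference -0.85) and Gtsf1l (2.16, 0.995) in ZH oocytes, and Dicer1 (2.45, 0.88) in CabZ 2-cell embryos. In ZH oocytes 10.5% of genes tested were called higher and 7.2% lower, and of the 5 members tested Mael was called higher. In CabZ oocytes 2.07% were called higher and 0.836% lower, and Gtsf1l was called higher among 5 members tested. In CabZ 2-cell embryos 16.9% were called higher and 20.4% lower, and Gtsf1l was called lower among 5. In the Zscan4 experiment 0.0233% were called higher and 1.42% lower, with no member among them. These contrasts chose the members, so the counts show nothing about them, and neither do groups without overlap. Over all genes tested in ZH oocytes, limma gave an unadjusted p under 0.05 to 28.6% higher and 29.6% lower. These shares were 14.2% and 12.7% in CabZ oocytes and 27.6% and 33.8% in CabZ 2-cell embryos. In the Zscan4 experiment they were 8.43% and 11.4%. The difference in log2(FPKM + 1) of Gtsf1l was 1.00 ± 0.26 (SE) in ZH oocytes, 2.44 ± 0.26 in CabZ oocytes, -3.01 ± 0.26 in CabZ 2-cell embryos and -0.64 ± 0.14 in the libraries labelled Zscan4 OE against GFP. The scale understates differences of genes with low FPKM per gene span, such as Ago2, for which it was -0.21 ± 0.02 in ZH oocytes. The span includes introns, so a low value need not mean few reads. In ZH oocytes Ddx4, on 349 to 1262 reads a library, averaged under 1 FPKM and was not tested. Gtsf1l, a single short exon, was tested on 22 to 120 reads.

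**Figure D3:**
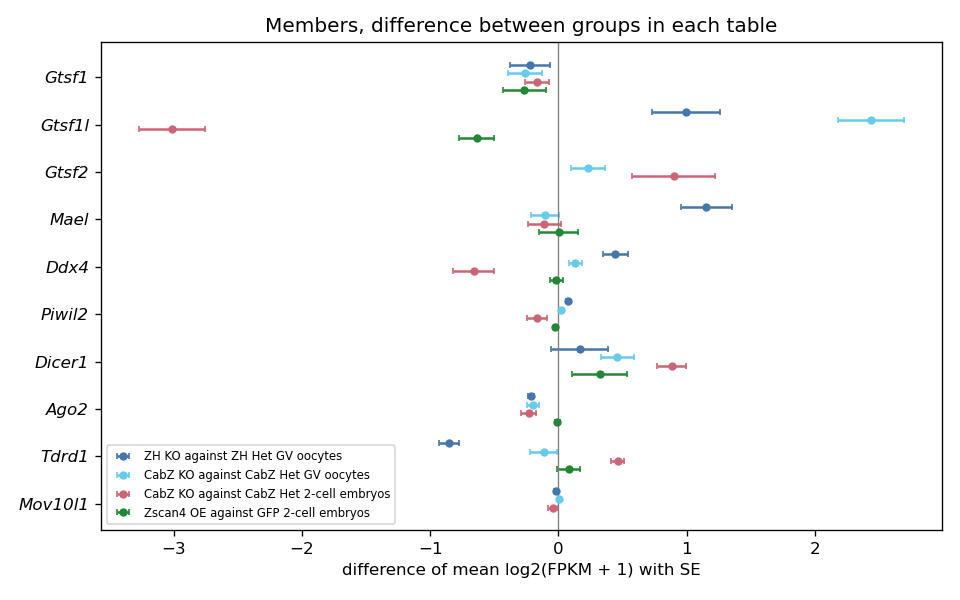
Difference between groups in mean log2(FPKM + 1) for each member and comparison, with its SE; values above 0 are higher in KO or in libraries labelled Zscan4 OE. Gtsf1l spans from -3.01 in CabZ 2-cell embryos to 2.44 in CabZ GV oocytes.

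The other genes of the pathway were taken from a list of 52 genes, which like the members was chosen with earlier results of these data known, so its counts and p-values are not independent evidence. Of the list, 13 genes were tested in ZH oocytes, 16 in CabZ oocytes, 13 in CabZ 2-cell embryos and 6 in the Zscan4 experiment. In CabZ 2-cell embryos limma called 6 of the 13 lower and 1 higher, beside 20.4% and 16.9% of all genes tested. In 5 of the 13, 1 group averaged under 1 FPKM, and outside these 5 were called lower and 0 higher. The shares of all genes are without this restriction. The summed oocyte markers, given above, were higher in KO than in Het embryos, and their part was not tested.

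Eif4e2, a cap-binding partner of translational repressors, fell from 9.52 to 1.53 FPKM (log2 difference -2.02 ± 0.29 SE, adjusted p = 0.00055). Btbd18, a regulator of piRNA precursor transcription in the testis, fell from 6.29 to 1.23 FPKM (adjusted p = 0.00167). Wdr77, a subunit of the complex that methylates PIWI proteins, fell by 1.76 on the log2 scale (adjusted p = 0.00118), and Ddx5, a helicase of the Microprocessor, fell by 1.23 (adjusted p = 0.00213). Tarbp2, a partner of Dicer1, fell by 1.00 (adjusted p = 0.00735), and was not called with median scaling or without CabZ Het replicate 2 or 4 or CabZ KO replicate 1 or 2.

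The other called genes passed the filter on low values only through the group where they were higher, so their calls are given as values. Prmt5, the methyltransferase that acts with Wdr77, was at a mean of 2.95 FPKM in Het and 0.661 in KO, and was not called without CabZ Het replicate 2 or 3. Henmt1, the methyltransferase of piRNA ends, was at 0.790 FPKM in Het and 2.70 in KO, and was not called without CabZ Het replicate 2 or CabZ KO replicate 1. The median log2 difference of the list genes tested, these included, was -0.89, beside -0.11 over all genes tested.

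In the oocyte tables no list gene passed both thresholds. In ZH oocytes limma gave an unadjusted p under 0.05 to 2 higher and 4 lower of the 13 list genes, beside 28.6% and 29.6% of all genes tested. Of these Tdrd5, a tudor protein, was at 2.89 FPKM in Het and 1.21 in KO (log2 difference -0.87, adjusted p = 0.00727), and Ddx5 was at 5.34 and 8.70 FPKM (adjusted p = 0.00547), both short of a fold of 2 on this scale. In CabZ oocytes an unadjusted p under 0.05 was reached by 1 higher and 1 lower of 16 list genes, beside 14.2% and 12.7% of all genes tested. In the Zscan4 experiment it was reached by 0 of the 6 list genes tested by limma, beside 8.43% higher and 11.4% lower over all genes. The list medians were -0.18 in ZH oocytes, -0.05 in CabZ oocytes and 0.04 in the Zscan4 experiment, beside -0.04, -0.02 and 0.03 over all genes tested.

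**Figure D4:**
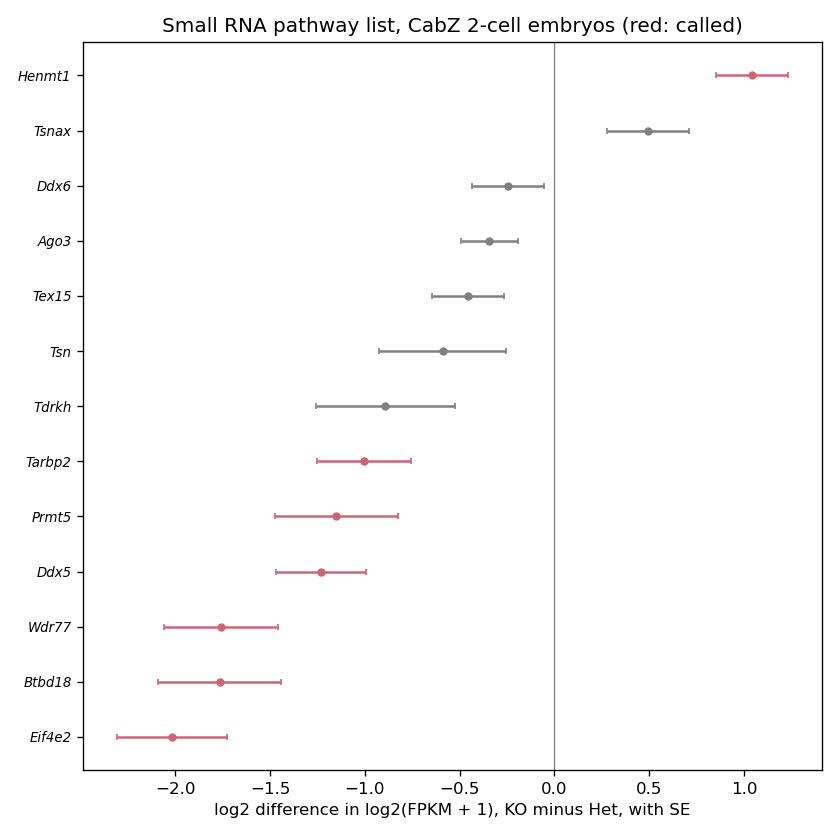
Difference in log2(FPKM + 1), CabZ KO minus CabZ Het 2-cell embryos, for the 13 list genes tested, with SE; red points passed the adjusted p and fold thresholds. Eif4e2 has the lowest value, -2.02, and Henmt1 is the called gene above 0.

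By the correlation of log2(FPKM + 1) after each table's mean was removed, over 31 libraries and 3297 genes, the genes most like Gtsf1l were Znhit3 (r = 0.854), Sugt1 (0.844) and Pafah1b1 (0.830). Znhit3 was at 9.16 ± 1.95 FPKM in CabZ Het and 18.4 ± 2.77 in CabZ KO oocytes, and at 276 ± 73.8 and 28.9 ± 10.3 in Het and KO 2-cell embryos (SD, n = 4). The likeness did not hold in every table. Sugt1 was at 4.20 ± 0.396 FPKM in the libraries labelled GFP and 5.58 ± 0.889 in those labelled Zscan4 OE, where Gtsf1l was lower. Pafah1b1 was at 1.07 ± 0.286 and 1.05 ± 0.0494 FPKM there. For Gtsf1 the most alike genes were Glmn (0.729), 2310009A05Rik (0.696) and Gm29216 (0.672). Gtsf2 reached the level needed in 1 table only, where Gm36480 (0.988) led over 8 libraries. The libraries share groups and depth, so these are descriptions.

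ATAC-seq, in which a transposase cuts accessible DNA, was available for CabZ GV oocytes, with 3 Het and 3 KO libraries each made from pooled oocytes. Peaks were called by the authors per library. The number of members with a peak within 500 bp of the annotated start was 2, 4 and 6 in the Het libraries and 3, 1 and 1 in the KO libraries. The groups overlapped, and the difference of the means, -2.33, had p = 0.2 in a two-sided exact permutation test, which cannot go below 0.1 with 3 against 3. The share of all protein-coding genes with such a peak was 8.59%, 17.6% and 32.3% in Het and 12.4%, 3.75% and 4.91% in KO libraries, and it moved with the number of peaks, which ran from 19160 to 111327. The part of peak number in the member counts was not tested.

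Tdrd1 had a start-site peak in all 3 Het libraries and in 1 KO library, and Piwil2 in all 3 Het and in 2 KO libraries. Gtsf1l had none at its annotated GENCODE start. Within 500 bp of its RefSeq start, which the sequence shown above precedes, a peak was called in all 3 Het libraries and in 1 KO library, with fold enrichments of 3.27 to 5.51 in Het and 3.75 in KO. The member counts and their permutation test used the GENCODE starts, so they leave these Gtsf1l peaks out.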

How the data were processed

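RNA-seq libraries were prepared from pooled oocytes or embryos and aligned by the authors with STAR 2.5.3a and quantified in Partek Flow, per the labels and the study's methods. The ZH and Zscan4 tables were deposited as FPKM per gene span, and their minimum, 0.01 and 0.001, was subtracted. The deposited values of the 2 CabZ tables are a score with an offset; the table minimum was subtracted, the value was multiplied by gene span, and divided by the library sum of value times squared span, which gives FPKM on reads on genes. Of the low values, 84.7 to 89.9% then lay within 0.1 of a whole read. ATAC peaks were deposited with a score, a fold (ratio) enrichment and −log10 p- and q-values, called by the authors with MACS2 after Bowtie2 2.3. The members and lists were chosen with earlier results of these data known.

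Genes averaging 1 FPKM or above across the libraries of a table were tested on log2(FPKM + 1) with limma 3.58.1 in R 4.3.3. The p-values had Benjamini-Hochberg adjustment. Calls needed an adjusted p under 0.05 and a fold over 2 on the log2(FPKM + 1) scale. The named genes are all members, the called genes of a small RNA pathway list and the 3 genes most correlated with each GTSF1 family member. Scripts were tested on simulated data. Alternatives were a pseudocount of 0.1, no filter, no fold threshold, median scaling, FPKM per exon length, a replicate block and each library left out. A promoter window is the 250 bases before a RefSeq start. Amino acid sequences were not used here.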

Additional observations from a re-analysis of the deposited data

Results flagged for a closer look

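Gtsf1l differed between stages in the direction of the CabZ KO to Het ratio, 6.52 in GV oocytes and 0.109 in 2-cell embryos, with every KO library on one side of every Het library in each; the difference itself was not tested. In groups of 4 libraries, 4 members had a library far from the others by Dixon's criterion: Piwil2 at 0.0349 FPKM in CabZ Het oocyte library 2, Ago2 at 0.344 FPKM in CabZ KO oocyte library 1, Tdrd1 at 2.77 FPKM in CabZ KO oocyte library 2, and Dicer1 at 4.06 FPKM in CabZ KO 2-cell library 4. The criterion was applied to every listed member in every group of 4 libraries. Chance alone marks about 1 in 20 such sets, so a few marks arise without any other reason.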

How the results depend on the processing

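Of the member differences recomputed under each alternative, 117 of 117 kept their direction in ZH oocytes, 128 of 130 in CabZ oocytes, 129 of 130 in CabZ 2-cell embryos and 85 of 96 in the Zscan4 experiment. The difference of Gtsf1l kept its direction under every alternative run in each comparison. Without a fold threshold, 2 list genes were higher and 3 lower in ZH oocytes and 1 was higher in CabZ oocytes. With FPKM per exon length, which tested more genes, 1 was higher and 2 lower in ZH oocytes, 1 higher in CabZ oocytes, and 3 higher and 10 lower in CabZ 2-cell embryos. A pseudocount of 0.1 gave 1 lower in ZH oocytes. In CabZ 2-cell embryos median scaling gave 5 lower, without Tarbp2, and no filter gave 7, with Pnldc1 added. Leaving out 1 library gave 0 to 1 lower in ZH oocytes (1 without ZH KO replicate 3) and, in CabZ 2-cell embryos, 0 to 1 higher and 4 to 7 lower; the calls lost were those of Henmt1, Prmt5 and Tarbp2. With the replicate block the CabZ 2-cell counts were 1 higher and 6 lower, and no count of list genes changed in the other tables. Same-numbered libraries correlated at -0.407 to 0.395 in ZH oocytes and at most 0.148 elsewhere, so pairing by number was not shown. With so few libraries in a group, each taken from its group mean, these values cannot exclude it. In ZH oocytes Het and KO libraries with different numbers correlated at -0.436 to 0.475. A grouping of libraries that the numbers do not give was not tested. The ATAC difference of -2.33 ranged from -3.33 to -1.33 with 1 library left out and was -1.0 with a −log10 q of at least 5 and -3.0 within 1000 bp. The causes were not tested. Depth limits Piwil2, Mov10l1 and Gtsf1l, which rest on few reads.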
